A study of Homo sapiens with 12 samples.

Results

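Gene expression was compared between incipient mesoderm-like cells (iMeLC) in which the catalytic domain of TET1 had been knocked out (CDKO) and control iMeLC (CTRL). The comparison used the 6 iMeLC libraries of a series of 12, namely the lines CDKO1102, CDKO1105 and CDKO1312 against the lines CTRL1101, CTRL1106 and CTRL1109, and all 36762 gene symbols of the iMeLC count table, of which 19999 had enough counts to be tested. The other 6 libraries were human embryonic stem cells (hESC) of the same lines, which are used here only to set the iMeLC differences beside those of the undifferentiated cells. All lines derive from UCLA1, an established human embryonic stem cell line, and the 2 iMeLC groups differ in the labels by genotype alone (Control or TET1 catalytic domain knockout). The labels do not say whether each line is a single clone, how the domain was removed, or when each culture was made. Spread between the 3 libraries of a group mixes line, culture and preparation, which cannot be told apart, and this spread is all that the p-values measure. RNA came from sorted cells or cell pellets, with no word on which library was which, and was made into stranded total RNA libraries.

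iMeLC are the short-lived state through which primed stem cells are taken before they are induced to form primordial germ cell-like cells, and they resemble the onset of the primitive streak, with pluripotency factors such as POU5F1 still on and streak genes such as TBXT, EOMES and MIXL1 switched on. TET1 is the main dioxygenase of pluripotent cells that oxidises 5-methylcytosine, mostly at CpG sites of promoters and enhancers, and so starts the removal of DNA methylation. Genes whose promoters carry methylation in somatic cells, among them germ line genes, imprinted genes and some immune genes, are well known to be sensitive to the balance of methylation and demethylation. DNA methylation was not measured in these libraries.

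TET1 itself was counted at 257, 289 and 265 CPM (counts scaled to a common library total) in CTRL1101, CTRL1106 and CTRL1109, and at 288, 309 and 268 CPM in CDKO1102, CDKO1105 and CDKO1312. The groups overlapped, and the log2 fold change (CDKO over CTRL) of 0.09 did not pass (SE 0.09, adjusted p = 0.577, exact two-sided permutation p = 0.3, where 20 permutations allow no p below 0.1). Counts were summed over the whole gene, so they cannot show whether the catalytic exons were lost. The other dioxygenases, TET2 (log2 fold change 0.43, adjusted p = 0.329) and TET3 (0.14, adjusted p = 0.47), did not pass either.

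The libraries differed within groups more than their labels say. Every CTRL library was deeper (91226186 to 109479071 counts) than every CDKO library (52121702 to 89723454 counts). POU5F1 stood between 817 and 982 CPM in all 6 libraries, but streak genes were uneven among controls. CTRL1106 held 10.4 CPM of TBXT, 14.7 CPM of EOMES and 20.4 CPM of MIXL1, below every other library. TBXT, for example, stood at 45.8 CPM in CTRL1101, 101 CPM in CTRL1109 and 26.5 to 66.0 CPM in CDKO. A chi-square of counts, which grows with depth and is near 1 per gene for sampling noise alone, came for CTRL1101 to between 76.3 and 88.2 per gene against CDKO libraries and to 170 and 198 against CTRL1106 and CTRL1109. The Pearson correlation of log2 CPM did not separate them, as that of CTRL1101 was 0.968 and 0.973 with the other controls and 0.968 to 0.977 with CDKO libraries. The 3 CDKO libraries were nearer to each other, at 21.5 to 32.4 per gene by chi-square and 0.979 to 0.984 by correlation. On the first principal component (44.8% of the variance) CTRL1101 lay at -14.03, CTRL1106 at -77.7, CTRL1109 at -54.7 and the CDKO libraries between 37.8 and 67.6, so that CTRL1101 lay between the groups and nearer to CTRL1109. Values below come from all 6 libraries unless an omission is named.

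**Figure D1:**
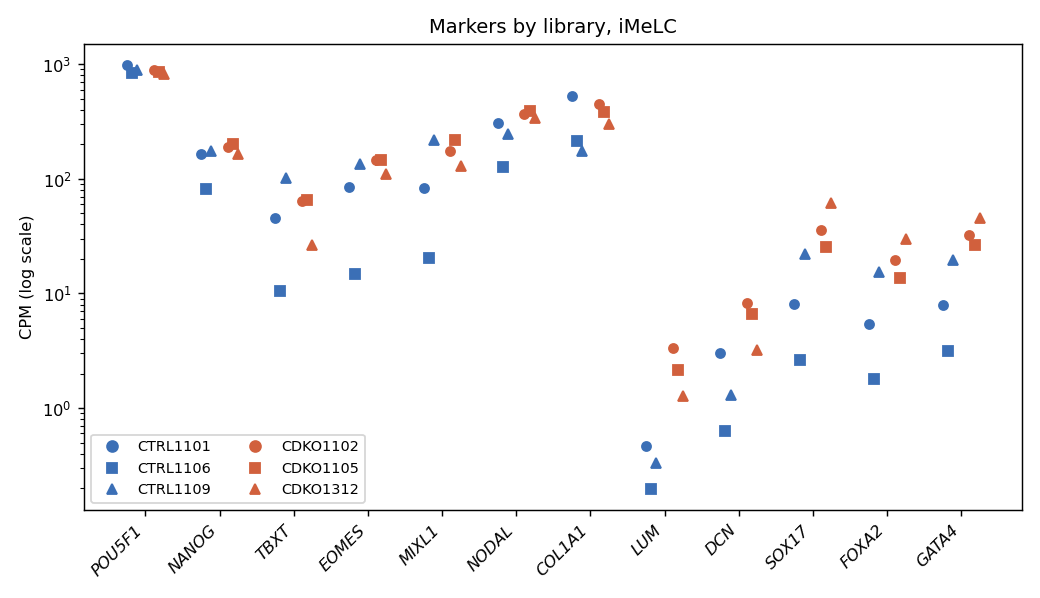
Level of 12 marker genes in each iMeLC library, as CPM on a logarithmic axis; blue symbols are the 3 CTRL libraries, orange the 3 CDKO libraries, and the symbol shape gives the line. CTRL1106 (blue squares) lies lowest for TBXT, EOMES, MIXL1, SOX17, FOXA2 and GATA4, while POU5F1 lies between 817 and 982 CPM throughout.

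Markers of cells that iMeLC cultures should not hold were mostly low. The amnion genes ISL1, GABRP and VTCN1 summed to 1.19 to 2.02 CPM in CTRL and 1.03 to 1.89 CPM in CDKO, and the germ cell genes NANOS3, DAZL and DDX4 to 0.337 to 2.43 CPM and 0.947 to 1.12 CPM, most of it DAZL (2.32 CPM in CTRL1106). DDX4 was at 0 outside CTRL1106, while SOX10, a neural crest gene, lay between 2.45 and 4.62 CPM in all 6 libraries. The neuroectoderm genes PAX6 and SOX1 summed to 0.807 to 1.77 CPM in the control lines and 1.5 to 1.52 CPM in CDKO. The summed level of the endoderm regulators SOX17, FOXA2 and GATA4 was 7.51 to 57.1 CPM in the control lines and 65.1 to 137 CPM in CDKO, with none of the 3 called. Of the fibroblast or feeder cell markers, COL1A1, COL1A2, LUM, DCN and POSTN summed to 291 to 779 CPM in the control lines and to 487 to 696 CPM in CDKO. Those ranges overlap, whereas LUM, a matrix proteoglycan of fibroblasts, was at 0.198 to 0.469 CPM in the control lines and 1.28 to 3.37 CPM in CDKO (adjusted p = 0.0785). In such bulk libraries, fewer cells of a type and less RNA per cell cannot be told apart.

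The comparison asks which genes were expressed differently at the iMeLC stage when the TET1 catalytic domain was missing. Most of the genes that passed were lower in CDKO, and many of them were nearly silent there. At an adjusted p under 0.05 (edgeR quasi-likelihood test, Benjamini-Hochberg adjustment over all tested genes), 53 genes (0.265% of those tested) were lower and 16 (0.08%) were higher, 69 (0.345%) in all. At an adjusted p under 0.1 the numbers were 163 (0.815%) and 89 (0.445%). Of the 53 lower genes, 47 changed by more than 1 on the log2 scale and 34 by more than 3. In 33 of them the CDKO mean was under 1 CPM and in 14 under 0.1 CPM, against a median level of 7.67 CPM in CTRL. The 16 higher genes were mostly expressed in both groups, and their median level was 12 CPM in the control lines and 40.7 CPM in CDKO. All 69 genes had no overlap between the libraries of the groups, a property shared by 26.1% of all tested genes (12.2% with CDKO higher, 13.9% with CDKO lower). Across all tested genes the median log2 fold change was -0.03, and 46.9% had a positive one.

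**Figure D2:**
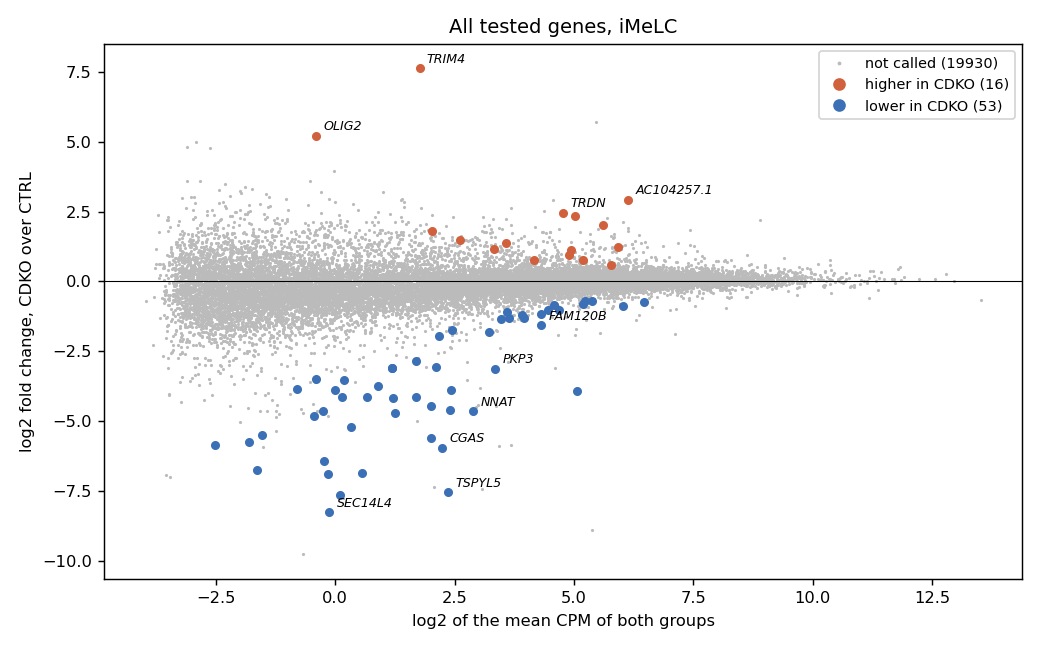
Each point is 1 of 19999 tested genes, with the log2 of its mean CPM over both groups on the horizontal axis and its log2 fold change (CDKO over CTRL) on the vertical axis; grey points were not called, orange points (16) were higher and blue points (53) lower in CDKO. The called falls reach down to a log2 fold change of -8.25 (SEC14L4), while TRIM4 at 7.63 and OLIG2 at 5.21 stand above the other rises.

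The number of genes called hung on single libraries. Without CTRL1101, 1469 genes were higher and 1177 lower, and all 69 genes were among them. Without CTRL1106, CTRL1109, CDKO1102, CDKO1105 or CDKO1312 in turn, 40, 24, 13, 18 and 18 of the 69 genes were still called. A set of 11 genes was called in all 6 omissions. They are TRIM4, TRDN and the long non-coding gene AC104257.1 among the higher genes, and SEC14L4, NAP1L5, CGAS, ZFP3, PIWIL2, LINC02575, PKP3 and FAM120B among the lower ones. They were also called by DESeq2, by limma-voom, with other scaling and filters, and after thinning every library to the smallest total, wherever they passed the filter. This set was drawn up after the values were seen.

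**Figure D3:**
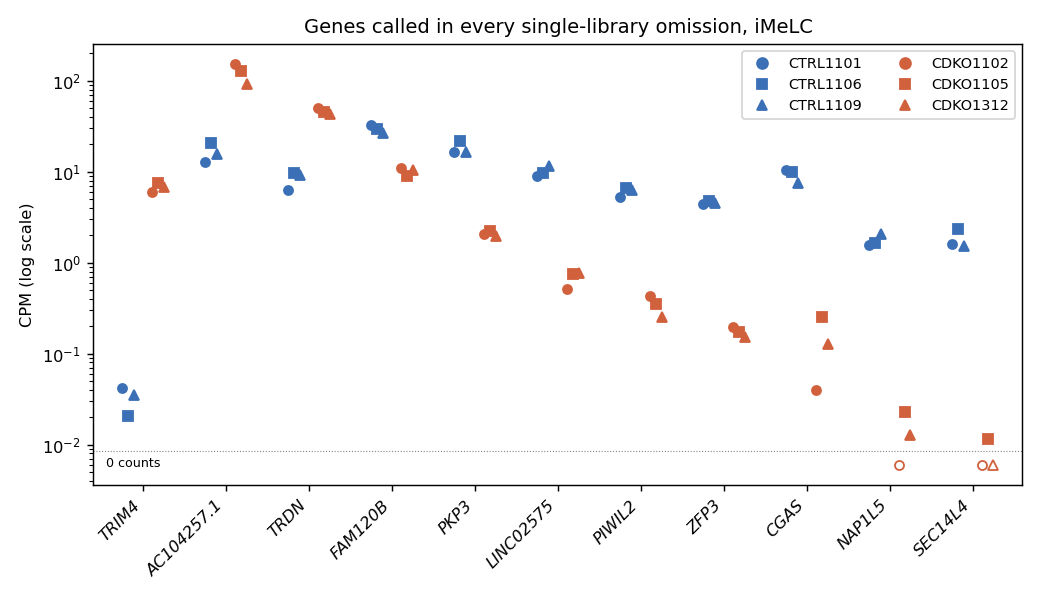
CPM in each iMeLC library, on a logarithmic axis, of the 11 genes called in every single-library omission; blue symbols are CTRL and orange symbols CDKO libraries, shape gives the line, and open symbols under the dotted line are libraries with 0 counts. In each gene the 3 CDKO symbols lie entirely above (TRIM4, AC104257.1, TRDN) or entirely below the 3 CTRL symbols.

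For 4 of these 11 genes the 250 bases before the RefSeq transcription start (GRCh38.p14) are shown, because CpG sites in such windows are the substrate on which TET1 and its opponents act. Each sequence is written 5′ to 3′ on the gene's own strand, with every CpG (the letters CG, which read the same on both strands) in capitals. The TRDN window (chr6:123636951-123637200, minus strand) holds 0 CpG, as do 1.19% of the windows of 13077 tested genes, whose median is 20 CpG. The ZFP3 window (chr17:5078217-5078466, plus strand) holds 26, and 30.9% of windows hold as many or more. The NAP1L5 window (chr4:88697830-88698079, minus strand) holds 16, with 65.2% of windows at as many or more, and the SEC14L4 window (chr22:30505696-30505945, minus strand) holds 11, with 77.9% at as many or more.
TRDN: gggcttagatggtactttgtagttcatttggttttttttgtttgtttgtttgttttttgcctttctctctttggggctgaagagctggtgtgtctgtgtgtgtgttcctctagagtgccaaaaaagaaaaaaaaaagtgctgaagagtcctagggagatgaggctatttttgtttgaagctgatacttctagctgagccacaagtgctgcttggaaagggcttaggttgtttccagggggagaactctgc
ZFP3: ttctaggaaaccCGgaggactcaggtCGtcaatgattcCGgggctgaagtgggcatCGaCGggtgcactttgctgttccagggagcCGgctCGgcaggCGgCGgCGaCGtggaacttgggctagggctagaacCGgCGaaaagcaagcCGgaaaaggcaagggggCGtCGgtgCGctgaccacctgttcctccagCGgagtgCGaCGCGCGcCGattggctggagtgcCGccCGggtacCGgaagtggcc
NAP1L5: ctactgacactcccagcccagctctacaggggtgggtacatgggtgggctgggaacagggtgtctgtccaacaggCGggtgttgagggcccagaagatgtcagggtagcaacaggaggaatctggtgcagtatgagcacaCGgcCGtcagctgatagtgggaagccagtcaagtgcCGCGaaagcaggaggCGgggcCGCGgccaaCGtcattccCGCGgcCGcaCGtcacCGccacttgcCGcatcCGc
SEC14L4: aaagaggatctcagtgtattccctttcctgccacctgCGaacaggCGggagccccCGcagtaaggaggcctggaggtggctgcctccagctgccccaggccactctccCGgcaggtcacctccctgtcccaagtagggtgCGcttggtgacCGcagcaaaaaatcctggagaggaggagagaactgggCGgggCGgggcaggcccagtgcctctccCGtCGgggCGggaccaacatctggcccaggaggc
Windows were matched for 30 of the 53 lower genes (56.6%), 9 of the 16 higher genes (56.2%) and 65.4% of all tested genes. With fewer than 80% matched, a comparison of CpG content between the called genes and the rest is void and is not given.

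Among the higher genes, TRIM4, a RING-type ubiquitin ligase gene (chromosome 7, 99876958 to 99919600), went from near silence to expression. In the order CTRL1101, CTRL1106 and CTRL1109 it stood at 0.0417, 0.0208 and 0.0355 CPM, and in the order CDKO1102, CDKO1105 and CDKO1312 at 5.94, 7.51 and 6.85 CPM. Every CDKO library was thus far above every CTRL library, and the log2 fold change was 7.63 (SE 0.33, adjusted p = 0.000335, at most 0.008 in any omission). Its exons overlap those of OR2AE1 on the same strand, so some reads could belong to either gene. TRIM4 was expressed in hESC of both genotypes (9.25 ± 1.84 CPM in the control lines and 7.50 ± 2.02 in CDKO, SD, n = 3, normalised within the hESC table). Control iMeLC were thus the only 1 of the 4 groups with a mean below 1 CPM.

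TRDN, the gene of triadin, a protein of the muscle calcium release complex (chromosome 6, 123216339 to 123637093), stood at 6.29, 9.68 and 9.14 CPM in the control lines and at 50.6, 45.6 and 42.8 CPM in the CDKO lines, with a log2 change of 2.47 (SE 0.18, adjusted p = 0.00282). TRDN was the called gene among 17 tested genes of the muscle calcium store, whose median of -0.03 was that of all genes. ATP2A3, a pump that refills the store, was at -1.21 (adjusted p = 0.104) and RYR1, the release channel, at -0.95 (adjusted p = 0.127). AC104257.1, a long intergenic non-coding gene on chromosome 8 (131308545 to 131317632), was counted at 12.8, 20.5 and 15.7 CPM in the control lines and 153, 127 and 92.9 CPM in CDKO lines, which gave a log2 change of 2.93 (SE 0.23, adjusted p = 0.00415).

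OLIG2, a basic helix-loop-helix factor of motor neuron and oligodendrocyte progenitors, was at 0, 0.0416 and 0.0710 CPM in the control lines and at 1.32, 1.70 and 1.42 CPM in CDKO (log2 fold change 5.21, SE 0.73, adjusted p = 0.0412). It was the only called gene of 14 tested neuroectoderm genes, whose median was 0.55 (0.336 without CTRL1109). Its level remained low, and it kept its call in 1 of 6 omissions (adjusted p = 0.221 without CDKO1102). KLF5, a Krüppel-like factor of pluripotent and epithelial cells, stood at 29.2, 24.3 and 26.7 CPM in the control lines and 48.9, 41.4 and 47.2 CPM in CDKO (0.78, SE 0.11, adjusted p = 0.0439). ETS1, a transcription factor of mesodermal and endothelial lineages, stood at 45.8, 44.9 and 40.8 CPM against 67.5, 63.0 and 66.8 CPM (0.59, SE 0.09, adjusted p = 0.0492). Both factors also kept their call in 1 omission alone, with adjusted p up to 0.26 for KLF5 and 0.291 for ETS1 without CDKO1102.

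COLEC12, a scavenger receptor with a collectin domain, stood at 11.6, 5.73 and 14.6 CPM in the control lines and at 62.1, 40.3 and 60.4 CPM in CDKO (log2 fold change 2.35, SE 0.34, adjusted p = 0.0439). TGFBR3, or betaglycan, the co-receptor that presents TGF-beta family ligands, stood at 8.24, 5.39 and 6.35 CPM against 18.6, 16.1 and 16.8 CPM (1.37, SE 0.18, adjusted p = 0.0379). B4GALNT1, the enzyme that makes the GM2 and GD2 gangliosides, stood at 1.74, 1.34 and 2.29 CPM against 6.99, 5.69 and 6.23 CPM (1.81, SE 0.25, adjusted p = 0.0386). In each of these 3 genes the lowest CDKO library was above the highest CTRL library by at least the spread within CTRL. PCDHGC4, a gamma protocadherin of cell adhesion, was even within groups, at 3.17, 3.14 and 3.29 CPM against 9.06, 8.88 and 8.93 CPM (1.48, SE 0.16, adjusted p = 0.0135). DYSF, which encodes the membrane repair protein dysferlin, stood at 13.4, 13.2 and 13.4 CPM against 22.7, 22 and 23.3 CPM (0.76, SE 0.10, adjusted p = 0.037). COLEC12, TGFBR3 and B4GALNT1 lost their calls in 4 of 6 omissions, PCDHGC4 in 3 and DYSF in 5, with adjusted p up to 0.255 (COLEC12), all without CDKO1102.

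MPP1, a membrane scaffold protein first known from red cells, stood at 20.5, 18.7 and 18.99 CPM in the control lines and at 47.9, 41.9 and 36.4 CPM in CDKO (1.12, SE 0.12, adjusted p = 0.0164). EHBP1L1, an adaptor of membrane traffic, stood at 7.13, 5.35 and 6.24 CPM against 14.4, 13.3 and 14.03 CPM (1.16, SE 0.16, adjusted p = 0.0386). DTWD2, which modifies tRNA, stood at 22.6, 17.3 and 21.5 CPM against 44.8, 35.7 and 37.5 CPM (0.94, SE 0.14, adjusted p = 0.0492). In these 3 genes every CDKO library was well above every CTRL library, but DTWD2 and EHBP1L1 lost their call in 5 omissions (adjusted p up to 0.26 and 0.232 without CDKO1102) and MPP1 in 3 (up to 0.0957 without CDKO1105).

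The MTRNR2L family are nuclear copies of the mitochondrial 16S ribosomal RNA that encode humanin-like peptides. Of 10 tested members, 2 (20%) passed as higher in CDKO iMeLC, where 0.08% of all tested genes did. MTRNR2L12 stood at 37.4, 36.5 and 35.3 CPM in the control lines and at 82.9, 102 and 71.6 CPM in CDKO (log2 fold change 1.23, SE 0.13, adjusted p = 0.0144), and MTRNR2L6 at 23.5, 13.9 and 21.1 CPM against 99.1, 86.5 and 50.1 CPM (2.01, SE 0.28, adjusted p = 0.0415). Both were called, MTRNR2L6 in 2 and MTRNR2L12 in 4 of 6 omissions (adjusted p up to 0.221 and 0.105 without CDKO1102). All 10 tested members had a positive fold change, 7 of them without overlap, and the list median was 1.17. Among all tested genes 46.9% were positive and 12.2% were higher without overlap. The summed level of the family was 168 to 216 CPM in the control lines and 421 to 650 CPM in CDKO. Of these members, 7 were tested in hESC, where their median was negative, at -0.82. These copies are nearly identical to each other and to mitochondrial RNA, so reads cannot be assigned among them with certainty. The share of counts in mitochondrially encoded genes ranged from 2.50% to 4.04% in CTRL and from 3.27% to 4% in CDKO, overlapping, and its part in the result was not tested.

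The lower genes began with several that were expressed in every control library and almost absent from every CDKO library. SEC14L4, a lipid-binding protein of the SEC14 family, was counted 553 times over the 3 CTRL libraries and 1 time over the 3 CDKO libraries, a depth-corrected ratio of 392 (95% interval 70.1 to 15500, counting error only, adjusted p = 0.00415). SMIM10, a small membrane protein gene on the X chromosome, was counted 662 times against 2, for a ratio of 235 (64.8 to 1940, adjusted p = 0.00734). NAP1L5, an imprinted retrogene of the nucleosome assembly family that lies within HERC3, was counted 547 times against 3, for a ratio of 129 (44 to 629, adjusted p = 0.00415). In CPM these genes stood between 1.53 (SEC14L4 in CTRL1109) and 2.62 (SMIM10 in CTRL1109) in CTRL and at 0.0255 or less in every CDKO library. HERC3, the host gene of NAP1L5, was at -0.42 (adjusted p = 0.468). SMIM10 lost its call without CDKO1102 alone (adjusted p = 0.0619).

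TSPYL5, a testis-specific Y-encoded-like protein of the nucleosome assembly superfamily, stood at 6.82, 16.4 and 7.59 CPM in the control lines and at 0, 0.0916 and 0.0510 CPM in CDKO (log2 fold change -7.54, SE 0.67, adjusted p = 0.00683). CYTL1, a secreted cytokine-like protein, stood at 1.02, 1.63 and 2.40 CPM against 0, 0.0458 and 0 CPM (-6.44, SE 0.85, adjusted p = 0.0374). NNAT, an imprinted proteolipid gene that sits inside BLCAP, stood at 14.7, 15.8 and 12.2 CPM against 0.572, 0.825 and 0.293 CPM (-4.65, SE 0.37, adjusted p = 0.00415). All 3 were present in each control and at least 10-fold lower in each CDKO library. BLCAP, whose exons overlap NNAT on the opposite strand, was at 0.37 (adjusted p = 0.218). TSPYL5 lost its call without CDKO1312 alone (adjusted p = 0.0702) and NNAT without CDKO1102 alone (0.0538), while CYTL1 lost it in 4 omissions (up to 0.214 without CDKO1102). Of 37 tested imprinted genes, NNAT and NAP1L5 were the ones called (5.41% lower, where 0.265% of all tested genes were). Without overlap 9 of the list were higher and 11 lower, against 12.2% and 13.9% of all tested genes. The list median of -0.07 was near that of all genes.

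CDX4, a caudal-type homeobox gene of the posterior primitive streak, was at 1.60, 2.32 and 0.922 CPM in the control lines and at 0.0395, 0.0458 and 0.102 CPM in CDKO (log2 fold change -4.63, SE 0.56, adjusted p = 0.0284). The groups did not overlap, and CTRL1106, lowest in TBXT, had the highest CDX4. CDX4 was called in 3 of 6 omissions (adjusted p up to 0.181 without CDKO1102). Of the 19 tested primitive streak and mesendoderm genes none was called. Without overlap, against 12.2% and 13.9% of all tested genes, 1 of the 19 was higher and 2 were lower. Their median of 0.51 rested on single libraries, being 0.102 without CTRL1106, 0.222 without CDKO1105, 0.319 without CDKO1102 and 0.878 without CTRL1109. TBX6, a T-box gene of presomitic mesoderm, had the smallest adjusted p of that list, at -1.40 (adjusted p = 0.153). NODAL, the ligand that induces the streak, stood at 306, 128 and 244 CPM against 371, 393 and 339 CPM without passing (0.70, adjusted p = 0.219).

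Genes of DNA sensing and the interferon response were among the deepest falls. CGAS, the cytosolic DNA sensor that makes cyclic GMP-AMP (chromosome 6, 73413515 to 73452276), stood at 10.4, 10.1 and 7.54 CPM in the control lines and at 0.0395, 0.252 and 0.128 CPM in CDKO (log2 fold change -5.95, SE 0.49, adjusted p = 0.00415, at most 0.0499 in any omission). MX2, an interferon-induced GTPase that restricts viruses, stood at 2.67, 3.59 and 2.46 CPM against 0.0592, 0.0229 and 0 CPM (-6.85, SE 0.66, adjusted p = 0.00849). OAS3, an oligoadenylate synthetase that senses double-stranded RNA, stood at 2.13, 1.70 and 2.43 CPM against 0.0197, 0.137 and 0.179 CPM (-4.12, SE 0.56, adjusted p = 0.0386). These 3 were the called members of 26 tested (11.5%, where 0.265% of all tested genes were called lower). Without overlap 9 of the list were lower and none higher, against 13.9% and 12.2% of all tested genes. The list median was -0.27. MX1, the paralogue beside MX2, stood at 4.62 ± 1.30 CPM in the control lines and 1.43 ± 0.44 in CDKO (SD, n = 3) with a log2 fold change of -1.69 that did not pass (adjusted p = 0.0898). Without CTRL1101, 7 of the list (26.9%) were called lower, where 5.69% of all tested genes were. In the other omissions 1 to 3 were. MX2 lost its call without CDKO1105 alone (adjusted p = 0.0848) and OAS3 in 4 omissions (up to 0.155 without CDKO1105). CGAS exons overlap DDX43 on the opposite strand, which was itself at -0.16 (adjusted p = 0.912).

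None of 14 tested antigen presentation genes was called, yet 12 were negative, 6 of them without overlap, with a median of -0.25. Another 2 were higher without overlap, where 13.9% of all tested genes were lower and 12.2% higher in that way. TAP1, the peptide transporter, stood at 7.59, 14.4 and 8.82 CPM in the control lines and 4.48, 6.80 and 5.07 CPM in CDKO (log2 fold change -0.91, SE 0.28, adjusted p = 0.16), and the immunoproteasome subunit PSMB9 was at -2.0 (adjusted p = 0.171).

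Of the piRNA pathway, which silences transposons in the germ line, 2 genes fell. PIWIL2, an Argonaute protein that binds piRNAs, stood at 5.33, 6.61 and 6.32 CPM in the control lines and at 0.434, 0.355 and 0.255 CPM in CDKO (log2 fold change -4.14, SE 0.28, adjusted p = 0.00227), and it kept its call in all omissions. TDRD1, a Tudor protein that docks PIWI proteins, had 206 counts over CTRL and 3 over CDKO, a ratio of 48.7 (95% interval 16.4 to 238, adjusted p = 0.037), and was called in 2 of 6 omissions. TDRD5, another Tudor protein, was at 0.948, 0.458 and 0.869 CPM against 0, 0.103 and 0 CPM without passing (-4.24, adjusted p = 0.125). Only 12 of the 24 members in the table had enough counts to be tested. Of those 12, 2 (16.7%) were called lower, where 0.265% of all tested genes were. Without overlap, against 13.9% and 12.2% of all tested genes, 7 of the 12 were lower and 1, TDRD7, higher (1.40, adjusted p = 0.124). The median of the 12 was -1.38, and it ranged from -0.65 without CTRL1106 to -2.35 without CDKO1105. Members such as TDRD1 and TDRD5 passed the filter through their CTRL level, so these counts and medians only describe the members that passed. Meiotic genes gave no call among 16 tested (median -0.28, and -0.163 without CDKO1105 to -0.452 without CTRL1109), the cohesin REC8 being at -1.0 (adjusted p = 0.126) and the meiotic recombination gene MEIOB at -4.01 (adjusted p = 0.13).

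Among 477 tested zinc finger genes 2 (0.419%) were called lower, near the 0.265% of all tested genes, and the list median was 0.03. ZFP3 stood at 4.44, 4.80 and 4.51 CPM in the control lines and at 0.197, 0.172 and 0.153 CPM in CDKO (log2 fold change -4.72, SE 0.26, adjusted p = 0.000989). Its neighbours on chromosome 17 did not pass, KIF1C at 0.32 (adjusted p = 0.208) and ZNF232 at 0.03 (0.936). ZNF311, in the extended HLA region of chromosome 6, stood at 2.18, 1.38 and 3.81 CPM against 0, 0.115 and 0.0638 CPM (-5.20, SE 0.75, adjusted p = 0.046) and was called in 2 of 6 omissions (up to 0.207 without CDKO1312).

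PKP3, which encodes the desmosomal protein plakophilin 3, stood at 16.4, 21.8 and 16.6 CPM in the control lines and at 2.05, 2.23 and 1.99 CPM in CDKO (log2 fold change -3.12, SE 0.18, adjusted p = 0.000989, at most 0.0155 in any omission). It was the called gene among 19 tested genes of epithelial identity, whose median was 0.12. PKP1 was also negative, at 0.208, 0.333 and 0.408 CPM against 0, 0.0458 and 0 CPM (-4.06, adjusted p = 0.127), whereas EPCAM, an epithelial adhesion protein of stem cells, was at 0.60 (adjusted p = 0.106). ANO9, a phospholipid scramblase of the anoctamin family, lies 13024 bp from PKP3 on chromosome 11 and fell by 3.10 (SE 0.41, adjusted p = 0.0374, called in 1 of 6 omissions with adjusted p up to 0.232). SIGIRR, between them, was at -0.14 (adjusted p = 0.699).

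A second group of neighbours fell on chromosome 21. LINC02575 (44485577 to 44490288) stood at 9.0, 9.81 and 11.5 CPM in the control lines and at 0.513, 0.744 and 0.778 CPM in CDKO (log2 fold change -3.88, SE 0.24, adjusted p = 0.00139). TSPEAR-AS1 (44506807 to 44516575) stood at 5.24, 10.9 and 7.02 CPM against 0.217, 0.160 and 0.651 CPM (-4.47, SE 0.57, adjusted p = 0.0353), and TSPEAR-AS2 (44517216 to 44525952) was at -3.75 (adjusted p = 0.037). TSPEAR, transcribed across the antisense genes from the other strand, was at 0.00 (adjusted p = 0.998). LINC02575 kept its call in all omissions, TSPEAR-AS1 in 3 and TSPEAR-AS2 in 2 (both up to 0.221 without CDKO1102). On chromosome 12, C1RL, a protease related to complement C1r, and its antisense gene C1RL-AS1 fell together (-3.05 and -3.08, adjusted p = 0.0386 for both). Each was called in 1 of 6 omissions (up to 0.232 and 0.259 without CDKO1102), and their exons overlap, so their counts are uncertain. These were the only called genes within 100000 bp of each other. Uncalled genes at that distance from the 52 lower genes with a position numbered 260, with a median log2 fold change of -0.08, and 7.69% of them were below -1 against 7.61% of all tested genes. Single neighbours differed from that median. Beside C1RL, C1R was at -1.47 (adjusted p = 0.143), C1S at -1.01 (0.127) and PEX5 at -0.22 (0.496). In the chromosome 21 group, AP001065.2 was at -4.64 (adjusted p = 0.0756) and TRPM2 at -1.91 (0.144), but LRRC3 at 0.86 (0.107) and AP001065.1 at 0.79 (0.452).

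FAM120B, a constitutive coactivator of PPAR-gamma on chromosome 6 (170290703 to 170407065), stood at 33.0, 29.3 and 26.9 CPM in the control lines and at 10.9, 8.99 and 10.4 CPM in CDKO (log2 fold change -1.56, SE 0.13, adjusted p = 0.00435). DLL1, the NOTCH ligand gene beside it, was at -0.81 (adjusted p = 0.433). ANKRD35, an ankyrin repeat gene, stood at 2.81, 6.19 and 4.20 CPM against 0.316, 0.206 and 0.217 CPM (-4.17, SE 0.40, adjusted p = 0.0084). SERPINB1, an inhibitor of neutrophil elastase, stood at 6.40, 9.85 and 14.2 CPM against 0.592, 0.0802 and 0.612 CPM (-4.60, SE 0.67, adjusted p = 0.046). MT1H, a metal-binding metallothionein, stood at 6.47, 13.3 and 3.80 CPM against 0.355, 0.103 and 0.0638 CPM (-5.60, SE 0.73, adjusted p = 0.037). In these 3 genes the controls varied by more than 2-fold but none came near a CDKO library, and they were called in 3, 2 and 3 omissions (adjusted p up to 0.0735, 0.26 and 0.163). MT1G, a close copy of MT1H, was at -4.42 (adjusted p = 0.0636), while the other tested metallothioneins lay between -0.14 and 1.55.

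GRIN1, the obligate subunit of NMDA receptors, fell by 3.51, the glutamate transporter SLC1A6 by 1.96, the P/Q-type calcium channel CACNA1A by 1.30, the microtubule-associated kinase MAST1 by 1.09 and the synaptic calcium sensor SYT1 by 0.82 on the log2 scale. TULP1, a photoreceptor protein, fell by 3.84. Adjusted p in these 6 genes ranged from 0.0131 (SYT1) to 0.0485 (GRIN1). SYT1 was called in 3 of 6 omissions, and the other 5 in 1 each and not by limma-voom, with adjusted p up to 0.291 (GRIN1 without CDKO1102). The adhesion receptors ADGRE5 and ADGRE2 fell by 2.83 and 1.74 and the chemokine CXCL5 by 3.89, with calls in 4, 1 and 3 omissions.

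Other lower genes were, with their log2 fold changes, the cytoskeletal motor gene MYH14 (-0.70), the laminin chain LAMC3 (-1.16), the receptor phosphatase PTPRU (-0.68), the DNA helicase PIF1 (-0.89), the ciliary transport gene IFT140 (-0.83), IQCA1 (-1.33), the chaperone DNAJA4 (-1.81), FGD5 (-1.04), THEMIS2 (-1.20), PLAAT5 (-1.02), PDCL2 (-3.50), TCEAL7 (-4.12) and the antisense gene AC106791.1 (-4.80). COLEC11, a collectin of the lectin complement pathway, had 104 counts in CTRL and 1 in CDKO, a ratio of 73.8 (95% interval 13 to 2940). The non-coding genes AC226118.1 (192 counts against 1, ratio 136, interval 24.2 to 5410) and AC022706.1 (174 against 2, ratio 61.7, interval 16.8 to 514) were also lower. These 16 genes were called in 1 or 2 of 6 omissions, except TCEAL7 in 4, with adjusted p up to 0.291 (PTPRU without CDKO1102). Reads of genes with overlapping exons are uncertain without a strand setting, which holds here for COLEC12, B4GALNT1, GRIN1, SLC1A6, ADGRE2, ADGRE5, SYT1, MYH14, IFT140, IQCA1, FGD5, DNAJA4, COLEC11, SEC14L4, AC106791.1 and PCDHGC4 as well as those named above.

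The same genes differed in hESC mostly in the same direction, and by less. All 16 higher genes passed the expression filter in the hESC table and 14 had a positive log2 fold change there, with a median of 0.64 against 1.43 in iMeLC. Of these, 6 were called higher in hESC (0.598% of tested hESC genes were called higher), among them AC104257.1, at 2.93 in both stages. Of the 53 lower genes, 50 were tested in hESC, 49 were negative and 22 were called lower (0.714% of tested hESC genes were, and 1.31% in either direction), with a median of -1.47 against -3.80 for the same 50 genes in iMeLC. The fall was larger in iMeLC for 48 of the 50. The genes were chosen on their iMeLC values and the lines were the same at both stages, so these counts describe the genes and are no independent support.

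Of these genes, SYT1, TRIM4 and MTRNR2L12 departed from that direction. CDX4 and SMIM10 kept it, with smaller falls in hESC. SYT1 was the lower gene with a positive value in hESC (0.30, adjusted p = 0.391). CDX4 was at 0.904 CPM in CTRL hESC and 0.784 in CDKO hESC (-0.22, adjusted p = 0.833), and the difference between its stage effects did not pass (adjusted p = 0.0977). SMIM10 was at 2.64 to 2.72 CPM in the CTRL hESC libraries and at 0.231 to 1.82 CPM in the CDKO hESC libraries (-1.45, adjusted p = 0.202), where all libraries still had counts. The difference between the stage effects of SMIM10 did not pass either (adjusted p = 0.102). Among higher genes the negative values in hESC were those of TRIM4 (-0.31, adjusted p = 0.517) and MTRNR2L12 (-0.82, adjusted p = 0.0904). The difference between the stage effects was tested for every gene over all 12 libraries. It passed for 4 of 20262 genes (0.0197%), of which TRIM4, MTRNR2L12 and PKP3 belong to the 69.

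**Figure D4:**
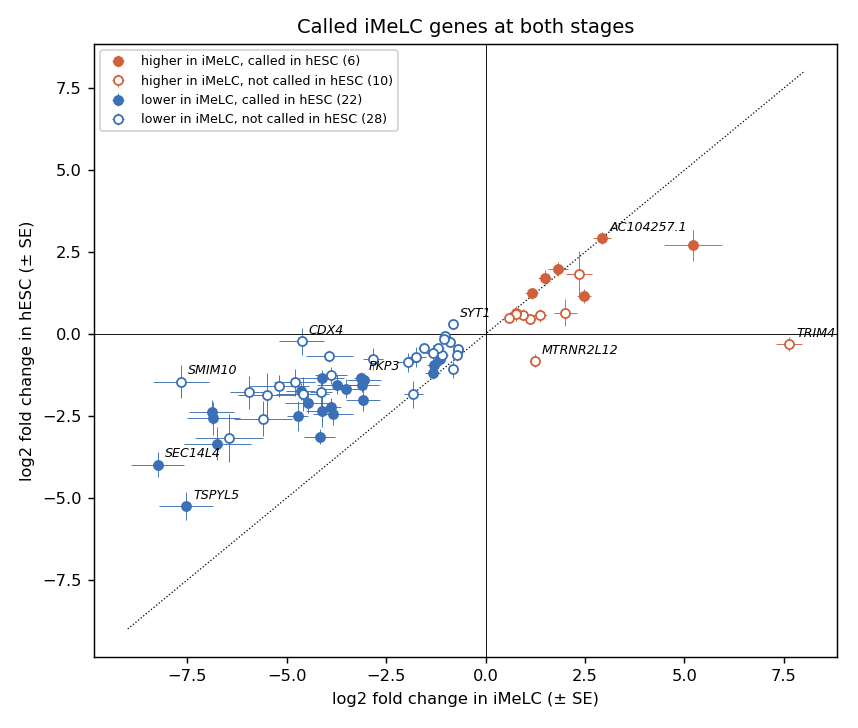
Log2 fold change (CDKO over CTRL) in iMeLC on the horizontal axis and in hESC on the vertical axis for the 66 called iMeLC genes also tested in hESC, with bars of 1 standard error each way; filled symbols were also called in hESC and the dotted line marks equal change. The lower genes (blue) lie above the dotted line in 48 of 50 cases, and TRIM4 lies far to the right at 7.63 in iMeLC and -0.31 in hESC.

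Beyond single genes, the developmental regulators of the HOX clusters were low in all libraries. Their summed level was 29.6, 8.90 and 9.81 CPM in CTRL1101, CTRL1106 and CTRL1109 and 50.8, 43.6 and 31.3 CPM in the CDKO libraries, so CTRL1101 came close to CDKO1312. None was called. Of 39 in the table, 32 had enough counts to be tested. All 32 were positive and 13 were higher without overlap, where 46.9% and 12.2% of all tested genes were. The median of the 32 was 1.39. The filter lets in genes that are high in a single group, so these counts only describe the 32 that passed. HOXA7 was nearest to passing, at 0.656, 0.146 and 0.373 CPM in the control lines and 4.20, 2.12 and 4.53 CPM in CDKO (3.20, SE 0.56, adjusted p = 0.0785). HOXC13 (3.27, adjusted p = 0.106) and HOXD10 (2.0, adjusted p = 0.117) followed. Without CTRL1101, 16 of 34 tested HOX genes (47.1%) were called higher, where 7.1% of all tested genes were, and the median was 2.44. In every other omission none was called, and without CTRL1106 the median was 1.09.

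Over the 6 libraries definitive endoderm genes showed the highest list median, 1.54 over 14 tested, with 13 positive, 8 without overlap and none called. Among all tested genes 12.2% were higher without overlap. The ranking was not kept in every omission. Without CDKO1312, for example, the median was 1.12, below the 1.71 of the HOX clusters. CER1, a secreted inhibitor of NODAL, was at 166, 29 and 319 CPM in the control lines and 752, 491 and 1088 CPM in CDKO (2.18, adjusted p = 0.176). SOX17, the endoderm and germ cell specifier, was at 8.07, 2.60 and 22.3 CPM against 35.9, 25.2 and 61.4 CPM (1.89, adjusted p = 0.201). CXCR4, the chemokine receptor of both endoderm and germ cells, was at 5.28, 2.52 and 10.7 CPM against 35.3, 21.0 and 49.6 CPM (2.52, adjusted p = 0.104). The groups did not overlap in these 3, but CTRL varied widely, with CTRL1106 lowest each time. Without CTRL1106 none of the list was called and the median was 1.23. Without CTRL1101 the median was 1.64 and 1 of 14 (7.14%) was called higher, near the 7.1% of all tested genes. Over the omissions the median ran from 1.12 (without CDKO1312) to 2.3 (without CTRL1109). Germ cell specification genes, which share SOX17, CXCR4 and PRDM1 with endoderm, had no call among 15 tested and a median of 0.28 (0.464 without CDKO1105). PRDM1, the repressor that starts the germ cell programme, was at 1.29 (adjusted p = 0.138), and KLF4 at 0.80 (adjusted p = 0.128).

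Mesenchymal transition genes were positive in 18 of 18 tested cases, 9 without overlap, with none called and a median of 0.82. Of all tested genes, 12.2% had CDKO higher without overlap. The fibrillar collagen COL3A1 was at 24.1 CPM on average in CTRL and 106 in CDKO (2.14, adjusted p = 0.106), fibronectin FN1 at 484 and 868 CPM (0.84, adjusted p = 0.104) and the matrix protein SPARC at 215 and 354 CPM (0.72, adjusted p = 0.098). The fibroblast and feeder list, which shares SPARC and COL3A1, had a median of 0.75 over 18 tested genes, 17 of them positive, 7 without overlap and none called. The summed level of that list was 2152, 1090 and 1339 CPM in the control lines and 2400, 2062 and 2149 CPM in CDKO. CTRL1101 thus lay within the CDKO range. Without CTRL1101, 11 of 18 mesenchymal genes (61.1%) and 13 of 18 fibroblast genes (72.2%) were called higher, where 7.1% of all tested genes were. In every other omission none of either list was called. The calls thus depend on leaving out the control whose fibroblast sum lay within the CDKO range. The part of other cell types in these differences was not tested.

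Clustered protocadherins, cell surface proteins of which single neurons choose a few, gave PCDHGC4 as their 1 call. That was 1.89% of those tested, where 0.08% of all tested genes were called higher. Of 53 tested, 38 were negative and 15 of them without overlap, while 4 were without overlap higher, among them PCDHGC4 and PCDHGC5 (0.99, adjusted p = 0.165). Of all tested genes, 13.9% were lower and 12.2% higher without overlap. The list median was -0.41, and -0.186 without CTRL1109. PCDHGA11 (-1.69, adjusted p = 0.0785), PCDHB3 (-1.49, adjusted p = 0.087) and PCDHA11 (-2.56, adjusted p = 0.087) had the smallest adjusted p after PCDHGC4. PCDHA11, for example, was at 4.04, 9.96 and 8.70 CPM in the control lines and 1.60, 0.607 and 1.67 CPM in CDKO. Without CTRL1101, 6 (11.3%) were called higher and 7 (13.2%) lower, where 7.1% and 5.69% of all tested genes were. In each other omission at most 1 was called. Exons are shared within the cluster, so counts of single members are uncertain.

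Hypoxia and glycolysis genes had a median of -0.56 over 17 tested, 13 of them negative. None was called and, where 13.9% of all tested genes were lower without overlap, 1 of the list was. That gene was SLC2A1, the main glucose transporter of stem cells, at 464, 436 and 522 CPM in the control lines and 301, 331 and 332 CPM in CDKO (-0.56, SE 0.09, adjusted p = 0.0731). In PFKFB4, a bifunctional enzyme that sets the pace of glycolysis, CTRL1101 stood with the CDKO libraries, at 11.5, 59.7 and 48.7 CPM in the control lines and 10.1, 9.87 and 12.1 CPM in CDKO. PFKFB3, its relative, showed the same split, at 50.8, 104 and 102 CPM against 47.4, 43.2 and 52 CPM. Without CTRL1101, 10 of 17 genes (58.8%) were called lower, where 5.69% of all tested genes were. In every other omission none was called. The calls thus depend on leaving out the control that stood with CDKO in PFKFB4 and PFKFB3.

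**Figure D5:**
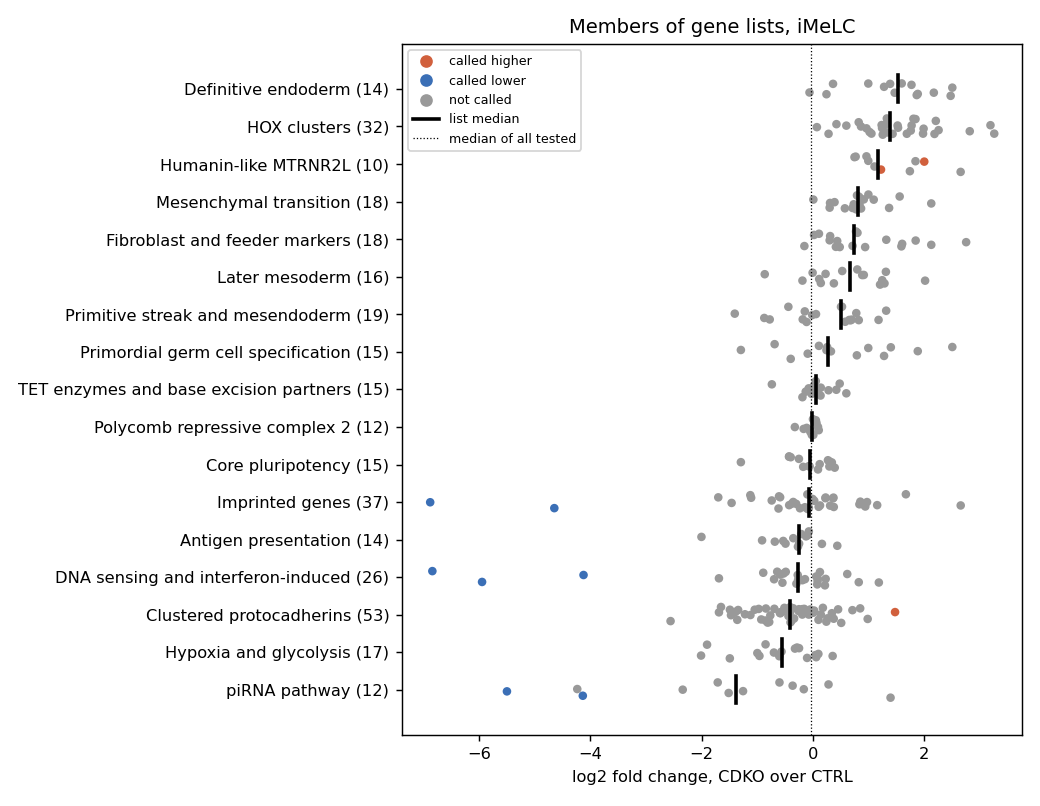
Log2 fold change (CDKO over CTRL) of every tested member of 17 gene lists, with the number tested in brackets; orange points were called higher, blue points lower and grey points neither, thick bars are list medians and the dotted line is the median of all tested genes. Medians run from -1.38 (piRNA pathway) to 1.54 (definitive endoderm), while called members are few and lie mostly far from the median of their list.

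Several groups with a known link to TET1 or to the identity of these cells gave no call by edgeR over the 6 libraries, although 19.8% of all tested genes had an unadjusted p under 0.05. Core pluripotency genes had a median of -0.05 over 15 tested, and their smallest adjusted p was that of UTF1 (0.152), a chromatin factor of stem cells. Subunits of Polycomb repressive complex 2, which shares many targets with TET1, had a median of 0.00 over 12 tested. DNA methylation writers and maintenance factors had a median of -0.02 over 12 tested, with DNMT3L, the cofactor of the de novo enzymes, at 1.82 (adjusted p = 0.136). TET enzymes and their base excision partners had a median of 0.06 over 15 tested. These medians lie within 0.1 of the median over all genes. Without CTRL1101, 2 core pluripotency (13.3%), 2 DNA methylation (16.7%) and 2 TET or base excision genes (13.3%) were called higher, where 7.1% of all tested genes were. In that omission 1 TET or base excision (6.67%) and 1 Polycomb gene (8.33%) were called lower, where 5.69% of all tested genes were. Without CTRL1109, 1 core pluripotency gene (6.67%) was called lower, where 0.107% of all tested genes were.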

How the data were processed

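Bulk RNA-seq of 6 iMeLC libraries was analysed, 3 per genotype, with 6 hESC libraries of the same lines beside them. RNA isolation used the RNeasy micro kit and library construction the stranded SMARTer kit for total RNA, per the labels' protocols. The authors deposited 2 tables of whole-number read counts per gene, 1 for iMeLC and 1 for hESC. The submitters' processing notes name FastQC, cutadapt, edgeR and the build GRCh38. Which aligner, counting program, strand setting and annotation were used is something the sources used here do not give. Samples were grouped by the genotype and stage in their titles. The hESC columns give the group but not the line. No sample column was left unmapped (0 unused).

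The count tables were fitted separately in R 4.3.3 with edgeR 4.0.16 (filterByExpr, TMM scaling, glmQLFit and glmQLFTest, two-sided, Benjamini-Hochberg over all tested genes, threshold 0.05). CPM values are normalised with TMM factors and are not corrected for gene length, so levels of different genes are not compared. The difference between stages was tested as an interaction over all 12 libraries. "No overlap" means that all CDKO libraries lay on the same side of all CTRL libraries. "Called" means an adjusted p under 0.05. Alternatives were RLE scaling, DESeq2 1.42.0, limma-voom (limma 3.58.1), no filter, a mean of at least 1 CPM, a fit over all 12 libraries, counts thinned to the smallest total, and the omission of each library. The edgeR steps were tested on simulated data.

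Values in every library are given for the 15 largest rises and 15 largest falls among called genes with a mean of at least 1 CPM in a group and no overlap, clone-based symbols aside, and for up to 4 members of each gene list by adjusted p. AC104257.1, FAM120B, LINC02575, PIWIL2, PKP3, OAS3, SOX17, ANO9 and TSPEAR-AS2 fall outside parts of that rule and were chosen after their values were seen, as were the neighbouring genes. A few genes that meet the rule, or were called, are not reported here. For genes with 1 to 3 counts in a group, a ratio of depth-corrected counts with an exact 95% interval is given. It covers counting error only, as no molecular identifiers are recorded. The members and lists were chosen with earlier results of these data known.

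Symbols were matched to GENCODE release 29 (GRCh38), which placed 34217 of 36762 (93.1%). Promoter windows came from RefSeq and were kept where they lay within 5000 bp of the gene. Total counts per iMeLC library ran from 52121702 to 109479071.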

Additional observations from a re-analysis of the deposited data

Results flagged for a closer look

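The difference between the genotype effect in iMeLC and that in hESC passed for 4 of 20262 genes in the interaction fit over 12 libraries (edgeR, adjusted p under 0.05). The fit treats the libraries as independent although the same lines were used at both stages.

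TRIM4 had the largest difference of the 4, at 7.942 on the log2 scale (adjusted p = 1.23e-06), and it was called in every omission of a library (adjusted p up to 1.7e-05). Its CTRL level was under 0.1 CPM in iMeLC and 9.25 CPM in hESC.

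ABCA1, the cholesterol exporter, differed by 2.395 (adjusted p = 0.0381). Its iMeLC levels were 10.5, 11.5 and 10.7 CPM in the control lines and 29.4, 20.4 and 39.4 CPM in the CDKO lines, and the log2 fold change of 1.45 did not pass by itself (adjusted p = 0.0527). Its hESC levels were 42.8, 30.2 and 58.3 CPM in control cells and 25, 22.3 and 22.6 CPM in CDKO (-0.91, adjusted p = 0.0602). The groups did not overlap at either stage, in opposite directions. Leaving out 1 library took the adjusted p as high as 0.185 (without CDKO hESC 2).

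MTRNR2L12 differed by 2.091 (adjusted p = 0.0381, up to 0.142 without CDKO1102). It was higher in CDKO iMeLC, and in hESC stood at 98.6, 139 and 114 CPM in CTRL against 45.6, 86.4 and 67.0 CPM in CDKO. PKP3 differed by -1.75 (adjusted p = 0.0381, up to 0.162 without CTRL hESC 1), having fallen at both stages, by 3.12 in iMeLC and by 1.33 in hESC on the log2 scale.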

How the results depend on the processing

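The 16 higher and 53 lower iMeLC genes became 642 and 844 with DESeq2, 185 and 243 without a filter, 606 and 704 in the fit over all 12 libraries, 8 and 19 with limma-voom, 9 and 34 at a mean of at least 1 CPM, and 89 and 163 at an adjusted p under 0.1, a threshold chosen after seeing the data. Leaving out each library in turn gave 5 to 1469 higher and 10 to 1177 lower genes, the largest counts without CTRL1101. RLE scaling and thinning kept both counts within 1.5 times. None of the 69 genes changed direction under any setting run. The hESC counts of 103 higher and 123 lower genes became 298 and 328 with DESeq2 and 579 and 649 without a filter, with 1 to 278 and 4 to 215 over the omissions. The interaction counts of 3 and 1 became 144 and 54 with DESeq2 and 13 and 16 without a filter, with 1 to 261 and 0 to 178 over the omissions. The log2 fold change of TET1 stayed between 0.04 and 0.15 and uncalled. AEBP2, a Polycomb subunit, at -0.16 (adjusted p = 0.676), ranged over the omissions from -0.356 (without CTRL1101) to 0.069 (without CTRL1109, adjusted p = 0.856). The causes were not tested.

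Over the recomputed fold changes of single genes and medians of lists, AEBP2 included, 2598 counted as the same. For a gene this means the same direction and side of the threshold, and for a median a move smaller than the spread between libraries. Of the single-gene values, 237 passed newly, 409 no longer passed and 1 (AEBP2) reversed. Of the medians, 30 moved by more than the spread. The sign of a median was not checked, and that of WNT targets went from 0.24 to -0.0402 without CTRL1106. No paired analysis was possible because the CTRL and CDKO lines share no line number. With an omission 1 group has 2 libraries. Depth limits the genes nearly silent in CDKO, where a few counts set the ratio and its interval is wide.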

Other observations

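A wider set of genes lay just past the threshold. At an adjusted p between 0.05 and 0.1, a range chosen after seeing the data, 183 further genes were found, 73 with CDKO higher and 110 lower, all without overlap between groups. Of the higher ones, 64 were tested in hESC and 56 had the same sign there, and of the lower ones 95 of 101. Among genes with a mean of at least 1 CPM in a group and no clone-based symbol, the 10 largest differences with CDKO higher included several developmental regulators: the homeobox genes HMX1 (log2 fold change 3.60), HOXA7 (3.20) and IRX4 (2.30), the secreted morphogen SHH (2.84, adjusted p = 0.0598) and EBF2 (2.38, adjusted p = 0.0608). SHH stood at 0.208, 0.166 and 0.346 CPM in control cells and at 1.80, 1.08 and 2.35 CPM in CDKO. HMX1 was also called higher in hESC (2.59, adjusted p = 0.00945), as was IRX4 (2.16, adjusted p = 0.0418). The others were STEAP4 (3.22), LUM (2.76), MTRNR2L13 (2.67), the matrix protease MMP3 (2.54) and CUBN (2.43). By the same limits, the 10 largest with CDKO lower were the chemokine CCL28 (-4.81), the neuropeptide receptor NPFFR2 (-4.65), MT1G (-4.42), LINC01357 (-4.38), ACP5 (-4.14, adjusted p = 0.052), AIRE, the thymic regulator of self-antigen expression (-3.60), the peptide hormone CCK (-3.12), AK7 (-3.04), SYNE4 (-2.77) and PCDHA11 (-2.56). SYNE4 was called lower in hESC (-2.36, adjusted p = 0.0146).

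Of 40 genes with fold changes below -4 that were not called, 8 showed a different pattern. In these 8 the groups overlapped, each time with CTRL1106 at the level of the CDKO libraries. In the others every CDKO library lay below every CTRL library. ZNF729, a zinc finger gene, had 137 CPM in CTRL1101, 0.0208 CPM in CTRL1106 and 114 CPM in CTRL1109, against 0.197, 0.115 and 0.217 CPM in CDKO (-8.91, adjusted p = 0.126). ZNF98 stood at 35.6, 0.343 and 27.3 CPM against 0.316, 0.527 and 0.217 CPM, ZNF99 at 52.1, 0.250 and 23.1 CPM against 0.276, 0.641 and 0.332 CPM, and ZNF728 at 24.2, 0.260 and 19.97 CPM against 0.414, 0.905 and 0.625 CPM. These 4 genes lie on chromosome 19 between 22286408 and 23003176 (GRCh38). They are similar in sequence, so reads may be shared among them. HEPH, a ferroxidase of iron export, stood at 17.3, 0 and 32.8 CPM against 0.0395, 0.115 and 0.115 CPM, and TCEAL2, ZNF560 and AC079062.1 made up the rest.

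NLRP2, an inflammasome family gene, was split within CDKO. Its levels were 0.948, 2.68 and 1.37 CPM in the control lines and 1.62, 122 and 137 CPM in CDKO1102, CDKO1105 and CDKO1312 (5.71, adjusted p = 0.123). Its hESC levels were 2.34, 3.96 and 1.71 CPM in control cells and 2.94, 208 and 180 CPM in CDKO, where the columns do not name the line.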
